A study of Homo sapiens with 12 samples.

Results

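The cornified envelope genes followed here were 10 genes of squamous terminal differentiation, chosen by name with earlier results of these counts known, out of 58302 gene rows. They were *SPRR1A*, *SPRR1B*, *SPRR2A*, *SPRR2D*, *SPRR2E*, *SPRR3*, *IVL*, *TGM1*, *S100A7* and *S100A9*, and the rise of *SPRR2D* after ML355 was part of the choice. All 10 had a row, 7 had at least 1 count in some library, and 3 passed the filter on low counts and could be tested. The cells were NCI-H520, an established line of human lung squamous cell carcinoma, and RNA of 12 libraries was sequenced in 4 groups of 3. Cells carrying *L1-FGGY*, a chimeric transcript that starts in an L1 retrotransposon within *FGGY*, were stably made with a lentivirus and treated with 0.2% DMSO (L1_F DMSO), with 10 μM ML355, an inhibitor of 12-lipoxygenase (L1_F ML355), or with 450 μM NVR, a reverse transcriptase inhibitor (the libraries labelled NVR). The fourth group had DMSO and the label CTRL (CTRL DMSO), read here as the empty vector. All groups had their medium changed 5 h after seeding, no source gives the length of treatment, and all 12 libraries are labelled as this line.

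Keratinocytes at the end of their life replace the plasma membrane by the cornified envelope, a shell of proteins joined by covalent bonds. Involucrin (*IVL*) forms an early scaffold, the small proline-rich proteins (SPRR) act as cross-bridging precursors, and transglutaminase 1 (*TGM1*) is the membrane-bound enzyme that makes the bonds. S100A7 (psoriasin) and S100A9 (a subunit of calprotectin) are calcium-binding proteins of stressed or inflamed squamous epithelium. All of these genes but *TGM1* lie in the epidermal differentiation complex, a cluster on the long arm of chromosome 1, and airway epithelium switches on several of them when it turns squamous.

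The SPRR2 genes are shown first because their near identity bears on every SPRR2 count. The coding sequences of the 3 SPRR2 members each had 216 bases in GENCODE annotation on GRCh38, and capitals mark the 6 positions at which the 3 were not all alike.
SPRR2D coding sequence, chr1:153040131-153040346, minus strand: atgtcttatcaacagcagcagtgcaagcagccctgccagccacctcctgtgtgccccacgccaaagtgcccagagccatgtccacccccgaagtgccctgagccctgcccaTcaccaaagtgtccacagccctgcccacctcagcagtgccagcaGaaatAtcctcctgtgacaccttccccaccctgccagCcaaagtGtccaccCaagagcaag
SPRR2A coding sequence, chr1:153056520-153056735, minus strand: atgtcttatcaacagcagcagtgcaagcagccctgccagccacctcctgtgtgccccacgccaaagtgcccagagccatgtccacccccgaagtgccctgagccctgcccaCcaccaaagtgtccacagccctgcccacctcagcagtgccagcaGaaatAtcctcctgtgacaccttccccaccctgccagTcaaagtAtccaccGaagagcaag
SPRR2E coding sequence, chr1:153093536-153093751, minus strand: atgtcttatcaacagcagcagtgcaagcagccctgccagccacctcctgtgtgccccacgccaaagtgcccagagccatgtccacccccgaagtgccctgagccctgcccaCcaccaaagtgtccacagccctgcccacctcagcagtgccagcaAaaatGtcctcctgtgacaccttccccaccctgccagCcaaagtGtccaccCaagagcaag
*SPRR2D* differed from *SPRR2A* at 4 positions and from *SPRR2E* at 3, which left 98.1% and 98.6% of bases identical. Over the whole transcript, 33.8% of the 50-base windows of *SPRR2D* also occurred in another SPRR2 gene, against 7.44% of the 100-base windows. Counts of single SPRR2 genes are therefore uncertain to the extent that reads had several positions, and their treatment is not given in the sources used here.

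The members also shared features of their promoters, which the choice did not use. RefSeq (GRCh38.p14) gave the 250 bases before the start for 7 members, and not for *SPRR2D*, *SPRR2E* or *TGM1*. The letters TGANTCA, bound by AP-1 (dimers of Fos and Jun proteins), stood in 5 of these 7 on either strand, namely *IVL*, *SPRR1A*, *SPRR1B*, *SPRR2A* and *SPRR3*, against 6.57% of all 35116 windows. The letters TATAAA stood in 6 of 7, against 10.7% of all windows. The letters CACCC, bound by KLF factors, stood in 5 of 7, against 54.7%. In *SPRR1B* a CACCC overlapped a TGANTCA. The 3 windows printed show an SPRR gene with most of its counts in L1_F DMSO, a paralog of *SPRR2D* and an S100 gene that holds TATAAA without TGANTCA. Capitals mark both motifs.
SPRR3 upstream of the start, chr1:153001499-153001748, plus strand: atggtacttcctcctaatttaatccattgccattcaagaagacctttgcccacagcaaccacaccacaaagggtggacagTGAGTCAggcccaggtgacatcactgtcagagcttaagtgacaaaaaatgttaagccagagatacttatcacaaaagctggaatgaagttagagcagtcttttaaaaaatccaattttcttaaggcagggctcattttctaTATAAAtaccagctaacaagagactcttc
SPRR2A upstream of the start, chr1:153057513-153057762, minus strand: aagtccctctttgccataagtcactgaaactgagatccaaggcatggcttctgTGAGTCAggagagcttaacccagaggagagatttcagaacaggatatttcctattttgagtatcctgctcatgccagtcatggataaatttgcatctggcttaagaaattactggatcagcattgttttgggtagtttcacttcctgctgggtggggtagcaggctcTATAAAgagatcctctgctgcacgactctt
S100A9 upstream of the start, chr1:153357604-153357853, plus strand: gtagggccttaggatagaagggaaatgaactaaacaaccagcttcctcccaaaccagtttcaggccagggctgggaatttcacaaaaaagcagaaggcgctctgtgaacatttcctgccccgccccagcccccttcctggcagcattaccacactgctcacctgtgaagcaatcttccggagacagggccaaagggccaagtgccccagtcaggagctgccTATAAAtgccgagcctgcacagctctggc
The first base of TGANTCA lay at -170 from the start of *SPRR3* and at -197 from that of *SPRR2A*, and TATAAA began at -29 or -30 in all 3 windows. A match is a description of these letters only.

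Facts of the whole series were as follows. Total counts ran from 16242082 to 27004768 per library, so 3 counts, used as the floor, stood for 0.111 to 0.172 CPM (counts brought to a common library size with TMM scaling). The overexpressed gene went against 1 label. *FGGY* had 4782, 5206 and 6196 counts in L1_F DMSO and 7346, 6290 and 5080 in L1_F ML355, but 82, 103 and 88 in the libraries labelled NVR, beside 91, 87 and 78 in CTRL DMSO. The libraries labelled NVR are therefore named by their label throughout, and any direction drawn from them rests on it. Several defining markers of squamous carcinoma were absent from all groups, since *KRT6A* and *DSG3* had no count and *KRT5* and *PKP1* had at most 3 in any library. *SOX2* had 0 counts in L1_F DMSO and L1_F ML355 and 128 to 446 in the others, while *KRT17* had 16304 to 97372 in the former and 1 to 6 in the latter. These marker genes were picked after their values were seen. The summed level of the 12 squamous markers was 2096 to 2167 CPM in L1_F DMSO, 3739 to 5528 in L1_F ML355, 162 to 183 in the libraries labelled NVR and 136 to 137 in CTRL DMSO. This sum was carried mostly by *KRT17*, *PERP* and *TRIM29* in L1_F DMSO and L1_F ML355, and mostly by *PERP* in the others. Single markers went other ways, since *PERP* had 18406 to 19210 counts in L1_F DMSO and 6097 to 7013 in L1_F ML355, and *TP63* had 1 to 16 in these groups and 34 to 108 in the others. Whether the 2 sets of libraries are the same cells was not tested, and in a comparison across the sets a difference between cells and an effect of the vector or the treatment cannot be told apart.

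Most cornified envelope genes were silent or nearly so in these cells. *IVL*, *SPRR1A* and *SPRR1B* had 0 counts in all 12 libraries, which allows a group mean of at most 0.0398 CPM in CTRL DMSO and 0.0533 CPM in L1_F DMSO (3 counts over the group, counting error only). *SPRR2A*, *SPRR2E* and *S100A7* had a few counts but never more than 4 in a library. The other 4, *SPRR2D*, *SPRR3*, *TGM1* and *S100A9*, reached a mean of 0.5 CPM in some group, and they did not all peak in the same libraries. *SPRR2D* was highest in L1_F ML355, *SPRR3* and *TGM1* in L1_F DMSO, and *S100A9* in the libraries labelled NVR.

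**Figure D1:**
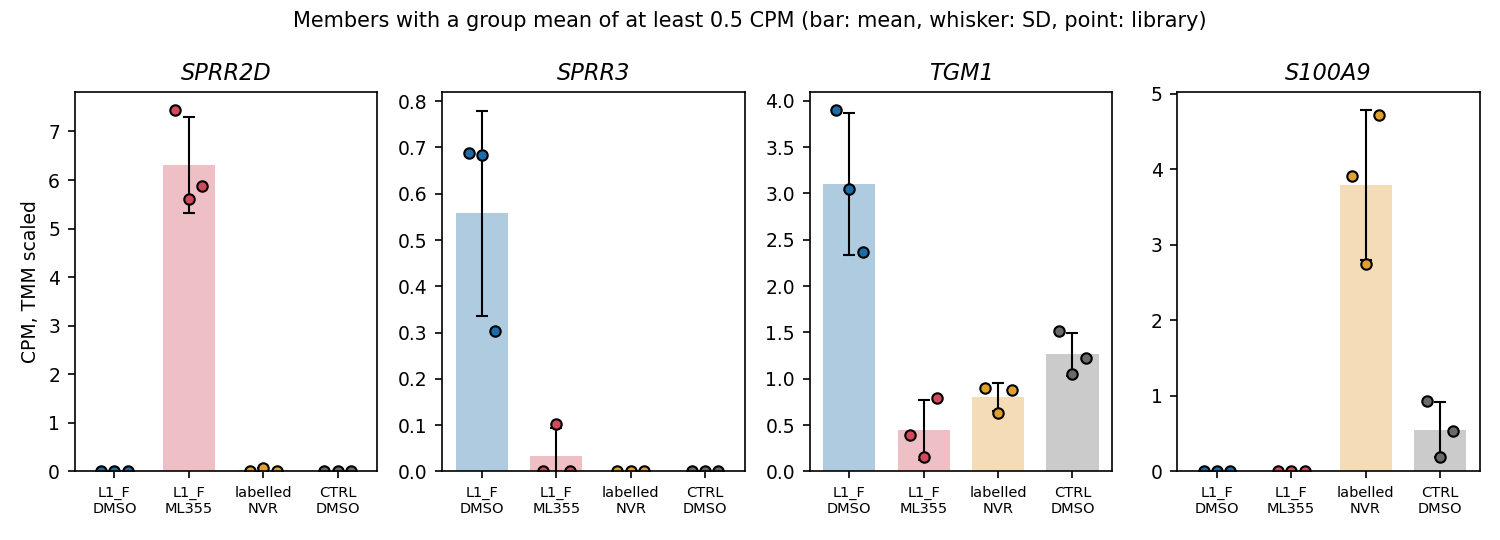
Level (CPM, TMM scaled, linear axes from 0) of the 4 members with a group mean of at least 0.5 CPM, in the 4 groups; points are libraries, bars means of 3 and whiskers SD. SPRR2D stood at 5.61 to 7.44 CPM in L1_F ML355 and at or near 0 elsewhere, S100A9 was at 0 in all L1_F DMSO and L1_F ML355 libraries, and TGM1 was present in all 12.

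*SPRR2D* (ENSG00000163216) encodes one of the small proline-rich precursors and lies on chromosome 1 from 153039732 to 153041931, minus strand, of GRCh38. It had 151, 109 and 112 counts in L1_F ML355, 0 in each library of L1_F DMSO, 0, 2 and 0 in the libraries labelled NVR, and 0 in each of CTRL DMSO. All 3 ML355 libraries stood far above the other 9. The level in L1_F ML355 was 6.31 ± 0.986 CPM (SD, n = 3), at least 39.4-fold higher than in L1_F DMSO with the latter set at 3 counts per library. No test is given for this difference, because it was part of the choice of the gene. The RNA was from bulk cultures, in which a larger share of cells with the transcript and more transcript per cell cannot be told apart.

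The SPRR2 counts with ML355 were nearly all those of *SPRR2D*. The 7 SPRR2 genes together had 151, 109 and 116 counts in L1_F ML355, and *SPRR2D* held 100%, 100% and 96.6% of them. *SPRR2A* (ENSG00000241794, chromosome 1, 153056120 to 153057512, minus strand) had 0, 0 and 4 counts there, and 3, 0 and 4 in the libraries labelled NVR. *SPRR2E* (ENSG00000203785, chromosome 1, 153093135 to 153106184, minus strand) had 0, 2 and 1 counts in L1_F DMSO, 0, 1 and 0 in the libraries labelled NVR and none elsewhere. Neither gene exceeded 4 counts in any library, too few to compare groups.

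*SPRR3* (ENSG00000163209, esophagin), a longer relative that is abundant in the lining of the mouth and oesophagus, lies on chromosome 1 from 153001747 to 153003856, plus strand, and its start lies at -40.2 kb from that of *SPRR2D*. It was highest in L1_F DMSO, the group in which *SPRR2D* had no count. It had 12, 13 and 6 counts in L1_F DMSO, 0, 2 and 0 in L1_F ML355, and none in the other 6 libraries, so that L1_F DMSO did not overlap any other group. The mean was 0.558 ± 0.222 CPM (SD, n = 3) in L1_F DMSO and 0.0343 CPM in L1_F ML355. The summed counts gave a ratio of 16.2 with an exact 95% counting interval of 4.12 to 139. That interval holds counting error only and leaves out the spread between libraries. It is not read as a test, since the comparison was behind the choice. Against CTRL DMSO the level in L1_F DMSO was at least 4.67-fold higher, and in the libraries labelled NVR it was at least 3.93-fold lower than in L1_F DMSO. *SPRR3* failed the filter on low counts, and no test is given for it, since 31 of its 33 counts lay in L1_F DMSO.

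*SPRR1A* (ENSG00000169474, chromosome 1, 152984081 to 152985814, plus strand) and *SPRR1B* (ENSG00000169469, chromosome 1, 153031203 to 153032900, plus strand), precursors that squamous airway cells are known to make, were among the genes with no count. So was *IVL* (ENSG00000163207, chromosome 1, 152908546 to 152911886, plus strand). The start of *SPRR1B* lies at -10.7 kb from that of *SPRR2D*, so a near neighbour of the gene with 109 to 151 counts had none.

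**Figure D2:**
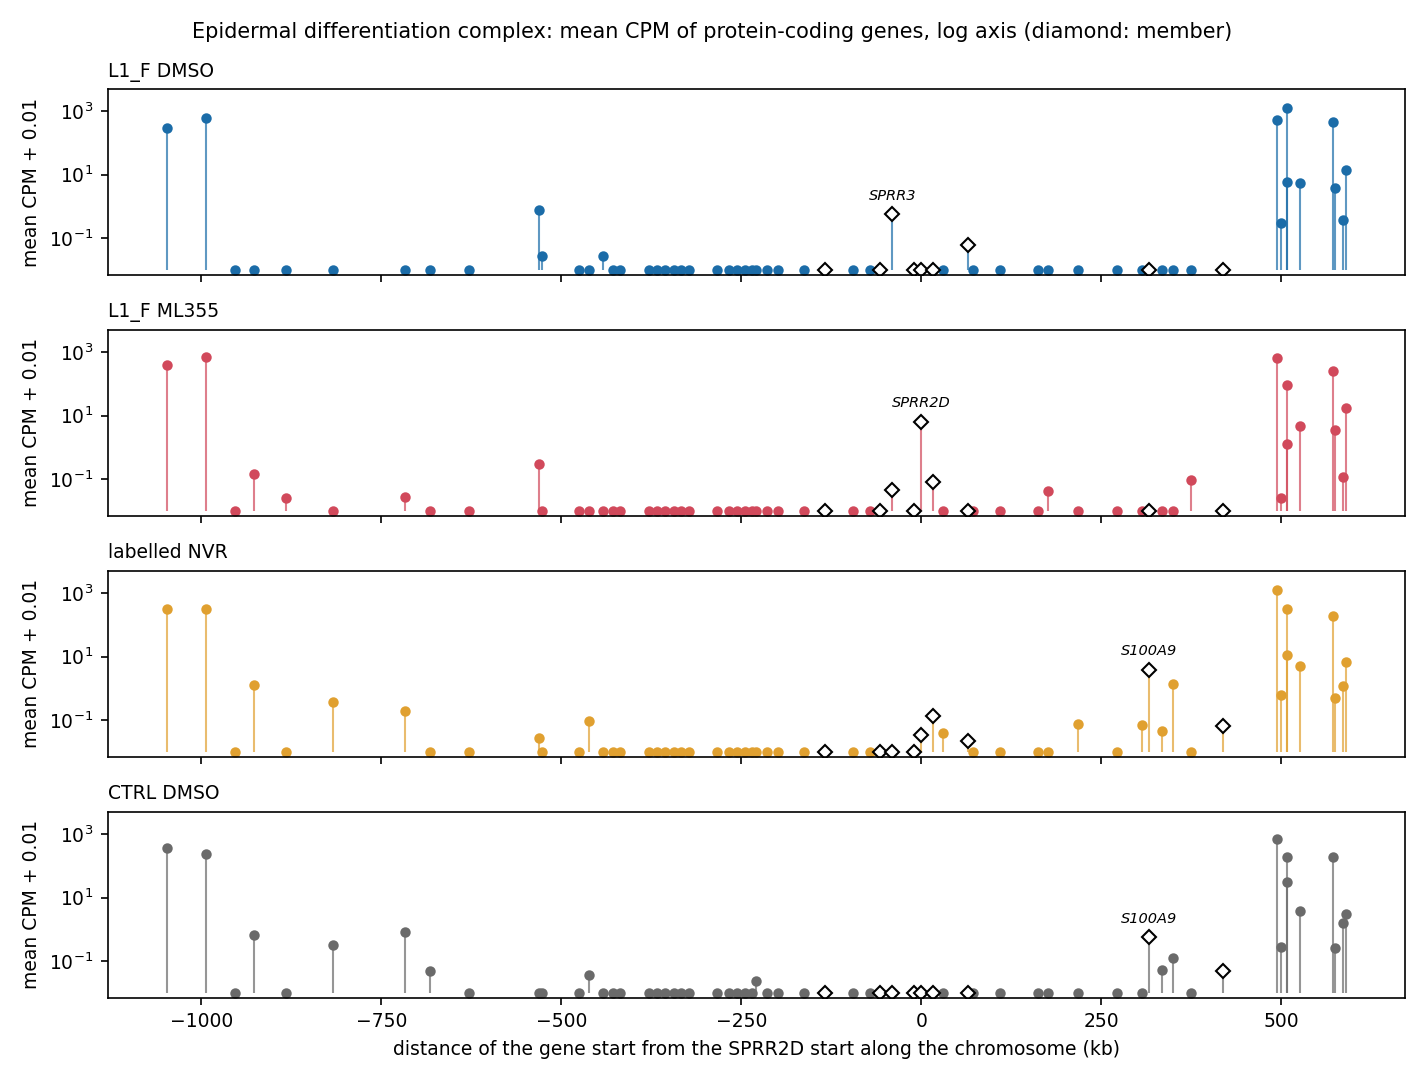
Mean level (CPM + 0.01, log axis) of 62 protein-coding genes of the epidermal differentiation complex in each group, placed by the distance of their start from that of SPRR2D (kb); diamonds are members. The highest levels in every group were those of S100 genes at the 2 ends, while 39 of the 62 genes never exceeded 3 counts in a library.

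The silence extended over the centre of the complex. Of 62 protein-coding genes between the flanking S100 groups, these included, 28 had no count in any library and 39 never exceeded 3 counts, and 11, 10, 13 and 12 genes reached 0.5 CPM in L1_F DMSO, L1_F ML355, the libraries labelled NVR and CTRL DMSO. Of 38 other precursor genes (filaggrin family, late cornified envelope and the like), 6 exceeded 3 counts and 3 were tested, and they are named here after their values were seen. *TCHH* (trichohyalin, of hair and tongue) had 0, 0 and 0 counts in L1_F DMSO, 2, 0 and 6 in L1_F ML355, 27, 39 and 19 in the libraries labelled NVR and 14, 16 and 20 in CTRL DMSO. *FLG* (filaggrin, which packs keratin filaments) had 16, 19 and 25 counts in CTRL DMSO and 1, 14 and 0 in the libraries labelled NVR, with at most 1 in the 6 others. *LCE5A*, a late cornified envelope gene, had 11, 17 and 15 in L1_F DMSO, 2, 10 and 5 in L1_F ML355, and at most 1 in the 6 others. Like *SPRR3*, *LCE5A* was highest in L1_F DMSO. In the libraries labelled NVR against CTRL DMSO the edgeR adjusted p was 0.0527 for *FLG* and 0.119 for *TCHH*. *FLG* passed the filter only through CTRL DMSO, where it was highest, so nothing is read from its p-value. *LCE5A*, at 1, 0 and 0 counts against none, was kept only through L1_F DMSO and could not be compared here. With voom, or without replicate 2 of the libraries labelled NVR (14 counts of *FLG*), 1 of the 3 was called lower. Of the 3, only *FLG* had a lower mean in the libraries labelled NVR than in CTRL DMSO.

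The crosslinking enzyme was the 1 member present in every library. *TGM1* (ENSG00000092295) lies outside the complex on chromosome 14, 24249114 to 24264432, minus strand. It had 68, 58 and 47 counts in L1_F DMSO, 8, 3 and 15 in L1_F ML355, 18, 17 and 16 in the libraries labelled NVR and 36, 27 and 32 in CTRL DMSO. Its order by mean was L1_F DMSO at 3.11 ± 0.768 CPM, CTRL DMSO at 1.27 ± 0.232, the libraries labelled NVR at 0.803 ± 0.150 and L1_F ML355 at 0.446 ± 0.320 (SD, n = 3). L1_F DMSO was apart from all other groups, whereas the ranges of the libraries labelled NVR (0.629 to 0.901) and L1_F ML355 (0.155 to 0.788) overlapped. The level with ML355 was 6.91-fold lower than in L1_F DMSO (log2 fold change -2.79, SE 0.42), given as a description. *TGM1* was thus lower in the same libraries in which *SPRR2D* was higher.

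Tested outside that comparison, *TGM1* was 2.45-fold higher in L1_F DMSO than in CTRL DMSO (log2 fold change 1.29, SE 0.36, edgeR adjusted p = 0.00358). This call was lost without replicate 1 of L1_F DMSO (adjusted p = 0.0228), replicate 2 of CTRL DMSO (0.0203) or replicate 3 of CTRL DMSO (0.0145), and adjusted p ran from 0.00054 to 0.0228 over the alternatives. In the libraries labelled NVR it was 3.89-fold lower than in L1_F DMSO (log2 fold change -1.96, SE 0.38, edgeR adjusted p = 0.000178). Against CTRL DMSO the libraries labelled NVR did not overlap and all lay lower, but the change was not called (log2 fold change -0.67, SE 0.39, edgeR adjusted p = 0.183). The first and second of these tests share the L1_F DMSO libraries with the comparison behind the choice.

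*S100A9* (ENSG00000163220, chromosome 1, 153357854 to 153361023, plus strand) divided the libraries in another way. It had 78, 74 and 86 counts in the libraries labelled NVR, 22, 5 and 14 in CTRL DMSO, and 0 in all 6 libraries of L1_F DMSO and L1_F ML355. Every library labelled NVR stood above every CTRL DMSO library. The means were 3.79 ± 0.994 and 0.553 ± 0.365 CPM (SD, n = 3), a 6.81-fold difference (log2 fold change 2.77, SE 0.46, edgeR adjusted p = 0.000522), and the log2 fold change ran from 2.36 to 3.34 over the alternatives with adjusted p from 1.03e-09 to 0.00304. No library of this comparison entered the choice of *SPRR2D*. In the fit of all 4 groups *S100A9* passed the filter on low counts only through the libraries labelled NVR, the group where it was highest. The adjusted p-value above is therefore that of a gene let in by its high group, and it is not independent support for the difference. In L1_F DMSO and CTRL DMSO alone, *S100A9* was too low to test. As a description, L1_F DMSO was at least 3.45-fold lower than CTRL DMSO, and the libraries labelled NVR were at least 23.6-fold higher than L1_F DMSO.

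*S100A8*, which encodes the partner of S100A9 in calprotectin and was picked after its values were seen, had 27, 16 and 42 counts in the libraries labelled NVR, 8, 0 and 0 in CTRL DMSO and 0 in the other 6. The levels were 1.42 ± 0.858 and 0.112 ± 0.194 CPM (SD, n = 3), given with no test. Both subunit genes were therefore detected in all libraries labelled NVR. In CTRL DMSO *S100A9* had counts in every library and *S100A8* in only 1. Since these proteins are abundant in neutrophils, 7 leukocyte markers were read beside them. Their summed level was 2.19 to 2.63 CPM in the libraries labelled NVR and 3.41 to 3.58 CPM in CTRL DMSO, *PTPRC* had no count in either, and *CD68*, *LYZ*, *CSF3R* and *CD3E* had at most 3 counts in any library. In these 2 groups *ITGAM* was the 1 marker of that list with more, at 34 to 68 counts in the libraries labelled NVR and 82 to 87 in CTRL DMSO.

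*S100A7* (ENSG00000143556, chromosome 1, 153457744 to 153460651, minus strand) had 0, 3 and 1 counts in the libraries labelled NVR, 0, 0 and 3 in CTRL DMSO and none elsewhere. Levels between genes can be set side by side only per length. Per kb of annotated exon, *SPRR2D* in L1_F ML355 (6.001 CPM per kb) and *S100A9* in the libraries labelled NVR (6.61) were the highest members, and *TGM1* and *SPRR3* in L1_F DMSO reached 0.832 and 0.387.

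The members called are read here against all 17849 genes tested. ML355 against L1_F DMSO called 21.3% of all genes higher and 23.5% lower, and *SPRR2D* higher and *TGM1* lower, of 3 members tested. Since this comparison was behind the choice, nothing is read from that count. The libraries labelled NVR against CTRL DMSO called 14.5% higher and 15.3% lower, and 1 member (*S100A9*, higher). This member was kept by the filter only through the libraries labelled NVR. L1_F DMSO against CTRL DMSO called 32.5% higher and 36.2% lower, and 1 member each way (*TGM1* higher, *S100A9* lower, the latter kept by the filter only through the libraries labelled NVR). The libraries labelled NVR against L1_F DMSO called 38.2% higher and 35.4% lower, and 1 member each way (*S100A9* higher, *TGM1* lower). Here too *S100A9* was kept by the filter only through the libraries labelled NVR. The last 2 comparisons and the first share the L1_F DMSO libraries, so their lists are not independent of one another.

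The same comparisons were then read for the other genes of the pathway, in lists chosen with earlier results of these data known. Their counts stand beside the shares of all genes called. These were 21.3% higher and 23.5% lower with ML355, and 14.5% and 15.3% in the libraries labelled NVR against CTRL DMSO. No list was tested as a set. In the S100 group of the complex (15 genes, 11 tested), 3 fell with ML355 (5 without replicate 2 of L1_F DMSO) and 8 were not called. *S100A4*, a calcium-binding protein of motile cells, went from 1266 ± 117 CPM in L1_F DMSO to 91.0 ± 11.1 with ML355 (log2 fold change -3.80, SE 0.22). It stood at 323 ± 98.0 CPM in the libraries labelled NVR and 191 ± 44.2 in CTRL DMSO. *S100A3*, known from the hair cuticle, also fell with ML355, from 6.02 ± 0.759 to 1.31 ± 0.189 CPM. In the libraries labelled NVR 3 S100 genes rose and 1 fell against CTRL DMSO, but the count of rises was 5 without replicate 2 of the libraries labelled NVR, 1 without replicate 1, and 0 without replicate 3, without replicate 2 or 3 of CTRL DMSO, or in a fit of those 2 groups alone. *S100A8* was among these 3 rises. It passed the filter only through the libraries labelled NVR, where it was highest, so nothing is read from its call.

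Scaffold and crosslinking genes outside the complex (24 genes, 16 tested) moved both ways, with 4 higher and 5 lower with ML355. Of all genes, 21.3% were called higher and 23.5% lower. *CSTA*, which encodes the envelope protein and protease inhibitor cystatin A, had 1, 0 and 4 counts in L1_F DMSO, 77, 64 and 67 in L1_F ML355, 35, 52 and 36 in the libraries labelled NVR and 2, 1 and 9 in CTRL DMSO. Like *SPRR2D*, it was at or near 0 in L1_F DMSO and well above it with ML355, and unlike *SPRR2D* it also had counts in all libraries labelled NVR. *PI3* (elafin, an elastase inhibitor with transglutaminase sites) fell with ML355 from 18.9 ± 2.86 to 5.24 ± 1.71 CPM, and rose in the libraries labelled NVR to 90.7 ± 21.0 CPM against 16.9 ± 2.96 in CTRL DMSO (edgeR adjusted p = 3.75e-07). *CLDN4*, a tight junction claudin, rose with ML355 from 59.4 ± 4.06 to 145.5 ± 19.1 CPM. Of the scaffold proteins, *PPL* (periplakin) fell with ML355 from 77.8 to 36.0 CPM, and *EVPL* (envoplakin) stood at 23.3 and 17.9 CPM and was not called. Of the other transglutaminases, *TGM2* fell from 214 to 132 CPM, while *TGM3* and *TGM5* were too low to test.

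**Figure D3:**
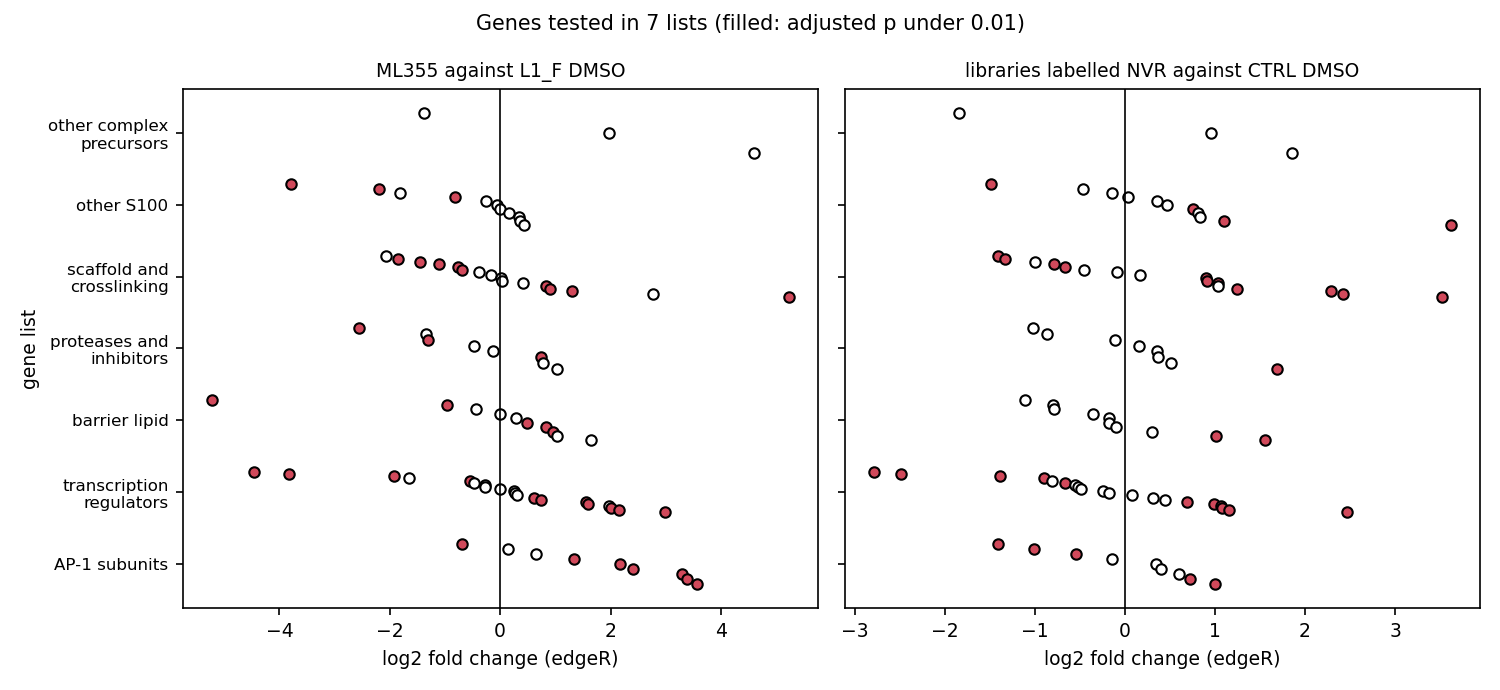
Log2 fold change (edgeR, horizontal axis) of every tested gene of 7 pathway lists, for ML355 against L1_F DMSO (left) and the libraries labelled NVR against CTRL DMSO (right); filled points had an adjusted p under 0.01. With ML355, 6 of 9 AP-1 genes lay to the right as filled points, and in no list were all tested genes called in 1 direction.

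Most regulators of squamous terminal differentiation were expressed highly enough to test. Of 25 genes, 20 were tested, and 7 rose and 4 fell with ML355, with a median log2 fold change of 0.26 against 0.00 for all genes. Among all genes tested, 21.3% rose and 23.5% fell. *KLF4*, a factor needed for the skin barrier, rose from 36.7 ± 4.19 to 162.8 ± 25.6 CPM, *ELF3*, an Ets factor known to bind SPRR promoters, from 58.8 ± 2.47 to 235.2 ± 23.5 CPM, and *HES1*, a Notch target, from 22.9 ± 1.93 to 180.8 ± 47.6 CPM. The 4 that fell are named here after their values were seen. *EHF* went from 4.61 to 0.203 CPM, *NOTCH3* from 165 to 43.3, *GRHL3* from 1.28 to 0.083 and *PRDM1* from 35.7 to 24.3. In the other groups *ELF3* did not follow *SPRR2D*. It stood at 316.4 ± 24.8 CPM in the libraries labelled NVR and 141.6 ± 2.31 in CTRL DMSO (log2 fold change 1.16, SE 0.11, edgeR adjusted p = 5.17e-07), where *SPRR2D* had 2 counts in all. In that comparison 6 regulators rose and 5 fell, the latter 3 without replicate 1 or 3 of the libraries labelled NVR or replicate 2 of CTRL DMSO.

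AP-1 genes were the list with the largest median rise with ML355 among the lists with more than 3 genes tested. No promoter window was given for *SPRR2D*, and a link between AP-1 and any member was not tested. Of 10 genes, 9 were tested, and 6 rose and 1 fell, with a median log2 fold change of 2.17 against 0.00 for all genes. Among all genes tested, 21.3% rose and 23.5% fell. *ATF3* rose from 24.6 ± 1.86 to 290.6 ± 7.76 CPM, *JUN* from 40.3 ± 1.51 to 396 ± 85.6 CPM and *FOS* from 4.50 ± 0.608 to 47.3 ± 11.4 CPM. *FOSL2* was the gene that fell, from 226 ± 18.9 to 139.8 ± 13.4 CPM. The levels with ML355 were not the highest of the series, apart from *ATF3*. *FOS* stood at 379 ± 52.5 CPM in the libraries labelled NVR and 229 ± 2.79 in CTRL DMSO, and *JUN* at 408 ± 16.02 CPM in CTRL DMSO. Against CTRL DMSO, L1_F DMSO had 7 AP-1 genes lower and 2 not called (median log2 fold change -1.95, all genes -0.11), beside 36.2% of all genes lower. The libraries labelled NVR against CTRL DMSO had 2 higher and 3 lower, or 1 higher when scaled by library size alone.

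**Figure D4:**
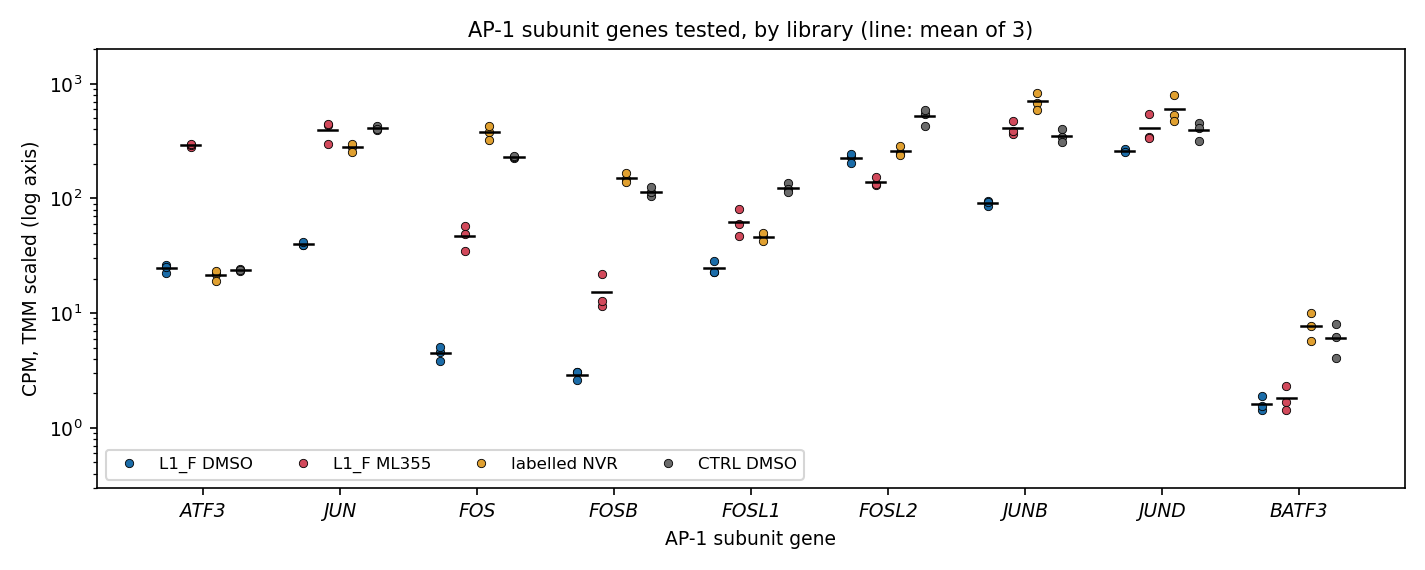
Level (CPM, TMM scaled, log axis) of the 9 AP-1 genes tested in each library of the 4 groups; points are libraries and lines means of 3. ATF3 was highest in L1_F ML355 (290.6 CPM), whereas FOS rose from 4.50 to 47.3 CPM with ML355 but stood higher still in the libraries labelled NVR and CTRL DMSO.

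Genes most like *SPRR2D* were sought by the root mean square distance between log2 CPM profiles over the 12 libraries, each centred on its mean. The 13848 genes compared had a symbol and a mean of at least 1 CPM. The members were left out beforehand, so none of them could appear. The 5 nearest were *H2BC21* (distance 0.683), *DDIT3* (0.770), *TSLP* (0.862), *H2BC7* (0.968) and *ATF3* (1.05). *TSLP* and *H2BC7* reached the mean of 1 CPM only through L1_F ML355, the group where *SPRR2D* was highest. *H2BC21* and *H2BC7* encode histone H2B, *DDIT3* and *ATF3* are stress-response transcription factors, and *TSLP* is an epithelial cytokine. *DDIT3* stood at 350.9 CPM in L1_F ML355, against 7.23 in L1_F DMSO, 14.9 in the libraries labelled NVR and 18.5 in CTRL DMSO. *TSLP* was the nearest in its low level, with 123, 77 and 103 counts in L1_F ML355 and at most 5 in every other library. Since the ML355 libraries stand apart in all 6 profiles, the distances describe these 12 libraries and say nothing of shared control.

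**Figure D5:**
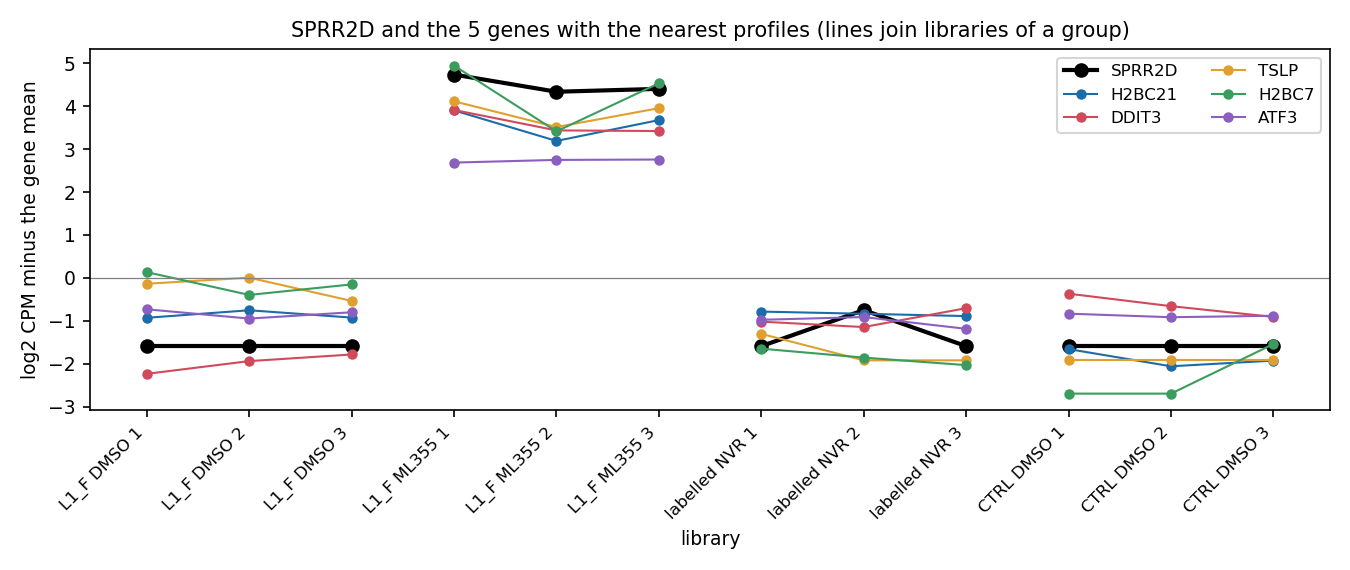
Log2 CPM minus each gene's mean over 12 libraries (vertical axis) for SPRR2D, in black, and its 5 nearest profiles, by library; lines join the 3 libraries of a group. All 6 genes were highest in the 3 L1_F ML355 libraries, and in none of the other 9 libraries did any of them come near those levels.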

How the data were processed

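RNA of 12 libraries of the NCI-H520 line was grouped by the labels into 4 groups of 3. The authors used STAR 2.5.3a (hg38) and HTSeq 0.11.2, and deposited raw whole-number counts per gene. The annotation release, the strand setting and how multiply mapped reads were counted are not given in the sources used here, and the labels name a TruSeq kit where the methods name NEB. Symbols and positions came from GENCODE 44 (57532 of 58302 identifiers matched). The members and lists were chosen with earlier results of these data known.

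Genes kept by filterByExpr (17849) were fitted in R 4.3.3 with edgeR 4.0.16 (TMM, 4 group means in 1 robust quasi-likelihood model, Benjamini-Hochberg adjusted p under 0.01 over all genes tested). The common biological coefficient of variation was 0.143. The threshold is the one used in the paper's voom test. No p is given for a member in ML355 against L1_F DMSO, nor for *SPRR2D*. Folds against a group at 0 are bounds, at 3 counts per library. Against a group with 1 to 3 counts in all, a ratio is given with its counting interval, which leaves out the spread between libraries. Genes named are the members, up to 3 genes per list and comparison with the smallest adjusted p among those with a mean of at least 1 CPM, the 5 nearest profiles (prior count 2) and *FGGY*. Others, such as *EVPL*, *PPL*, *TGM2*, *TGM3* and *TGM5*, the marker genes, and those so marked in the text, were picked after their values were seen. The labels do not say that replicates were separate cultures, so p-values measure only the spread between these libraries. No 2 replicates agreed within sampling noise (lowest chi-square per degree of freedom 6.49 over 12 pairs). Scripts were tested on simulated counts.

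Results were recomputed with DESeq2 1.42.0, with voom (limma 3.58.1), with 2 other scalings, filters and thresholds, with the replicate block, with the compared groups fitted alone, and without each library in turn. Figures were made with matplotlib.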

Additional observations from a re-analysis of the deposited data

How the results depend on the processing

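No result named for a member changed direction under any alternative run. The number of members called in L1_F DMSO against CTRL DMSO was 2 and fell to 1 in a fit of those 2 groups alone, where *S100A9* was too low to test, and ran from 1 to 3 with 1 library left out. The loss of *TGM1* without replicate 1 of L1_F DMSO is given above. The libraries labelled NVR kept 1 member called against CTRL DMSO and 2 against L1_F DMSO under DESeq2, voom, both scalings and the replicate block. *SPRR3*, let in by its counts in L1_F DMSO, came in as a further call when every gene with a count was tested, in each comparison with L1_F DMSO. It also did so when its filter was passed with 1 library left out (for ML355, without replicate 3 of L1_F DMSO or replicate 2 of L1_F ML355). Nothing is read from these calls, since nearly all *SPRR3* counts lay in L1_F DMSO and ML355 against L1_F DMSO was behind the choice. The replicate numbers did not pair the libraries, since their deviations correlated from -0.35 to 0.17. With the replicate block the members called stayed 2, 1, 2 and 2 in the 4 comparisons, and the all-gene counts of ML355 against L1_F DMSO and of the libraries labelled NVR against CTRL DMSO went from 8004 to 7583 and from 5316 to 4754. Without replicate 2 of CTRL DMSO the latter was 3506, and where a log2 fold change of 1 or more in size was also asked the 2 counts were 4590 and 2344. Scaling by library size alone moved the median log2 fold change of all genes to -0.13 for ML355 and to -0.15 for the libraries labelled NVR against CTRL DMSO, less than any change of a member. The floor of 3 counts stood for 0.111 to 0.172 CPM per library.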

Other observations

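Of 21 proteases and inhibitors of cornification, 8 were tested. In L1_F DMSO against CTRL DMSO, 4 were higher and 3 lower, beside 32.5% and 36.2% of all genes. *SPINK6*, an inhibitor of skin kallikreins, stood at 29.5 ± 4.72 CPM in L1_F DMSO, 4.97 ± 0.993 with ML355, 0.739 ± 0.357 in the libraries labelled NVR and 1.49 ± 0.0681 in CTRL DMSO (L1_F DMSO against CTRL DMSO: log2 fold change 4.31, SE 0.23, edgeR adjusted p = 7.85e-11). *CTSV*, a lysosomal cysteine protease of epithelium, went the other way, at 0.324 ± 0.126 CPM in L1_F DMSO and 11.4 ± 0.522 in CTRL DMSO (log2 fold change -5.13, SE 0.27, edgeR adjusted p = 5.09e-11). *KLK14*, a kallikrein of skin shedding, was the 1 gene of this list called in the libraries labelled NVR against CTRL DMSO (5.91 ± 2.22 against 1.82 ± 0.647 CPM, edgeR adjusted p = 0.00183), a call lost without replicate 2 or 3 of CTRL DMSO.

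Of 16 genes of barrier lipids, 10 were tested, and with ML355 3 rose and 2 fell (1 in a fit of those 2 groups alone). Among all genes tested, 21.3% rose and 23.5% fell. *FA2H*, which hydroxylates fatty acids of ceramides, went from 30.02 ± 1.97 to 53.6 ± 5.55 CPM, and *UGCG*, which makes glucosylceramide, from 42.4 ± 2.61 to 82.0 ± 17.2 CPM. None of the 3 rises reached a log2 fold change of 1. In L1_F DMSO against CTRL DMSO, 1 was higher and 7 lower, beside 32.5% and 36.2% of all genes. *ALOX12B*, a lipoxygenase of the skin barrier, stood at 0.215 ± 0.0574 and 2.19 ± 0.144 CPM there (log2 fold change -3.32, SE 0.37, edgeR adjusted p = 1.21e-06).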
